A study of Mus musculus with 20 samples.

Results

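Cardiac fibroblasts are the matrix-producing cells of the heart, and the libraries described here compare such cells with and without TGFB after loss of Hyal2. The experiment comprised 8 of the 20 RNA-seq libraries of the study, 4 labelled Cre_TGFB and 4 labelled Cre, chosen by these group labels in the table of raw gene counts and paired by replicate number. The cells were mouse cardiac fibroblasts at passage 2 with loxP sites around Hyal2, on a C57BL/6J background by their label. Their genotype field says wild type, whereas the floxed allele is named in the description of the treatment. Both groups were serum starved for 24 h and then exposed for 5 h to an adenovirus carrying Cre recombinase, which removes exon 2 of Hyal2. Cre_TGFB cultures were then kept for 48 h with TGFB at 20 ng/mL. Cre cultures were kept for the same time without TGFB, and the wording of the protocol does not settle whether they received bFGF at the same dose in its place. Effects of adding TGFB and of leaving out bFGF can therefore not be told apart. Replicates 1 and 2 of each group came from female and replicates 3 and 4 from male cells. Libraries of one number carry the same isolate code in their names, so each number is treated as 1 isolate. Nothing in the labels says how many animals made up an isolate. GFP_TGFB and GFP, the same treatments after a control virus with GFP (4 libraries each), are used below only to set the response after Cre beside the response with Hyal2 intact.

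TGF-beta ligands are secreted in a latent form, are released by integrins or proteases, and signal through type I and type II receptors to SMAD transcription factors. In cardiac fibroblasts the pathway is best known for turning resting cells into myofibroblasts, which build actin stress fibres and lay down collagen. Hyal2 is an enzyme anchored at the cell surface that cleaves hyaluronan, a long polysaccharide of the pericellular matrix that is bound by CD44.

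Library totals ranged from 40206753 to 81222147 counts in Cre_TGFB and from 41424875 to 104779845 counts in Cre. Mitochondrially encoded genes took 0.757% to 1.6% of the counts in Cre_TGFB and 0.538% to 0.622% in Cre. Fibroblast collagens were abundant in all 8 libraries, and 10 of 12 cardiomyocyte markers fell below the count filter; Myh6, the heart muscle myosin, had at most 1 count in a library. Leukocyte markers were detected, most of them at a low level, and all 15 tested members were called lower in Cre_TGFB, with a summed level of 132 to 337 CPM in Cre_TGFB and 214 to 563 CPM in Cre. CPM, the unit of expression used throughout, are library-size-adjusted counts scaled by TMM factors, which correct for differences in composition between libraries. The highest of these markers was Lyz2, at 82.9 to 216 CPM in Cre_TGFB and 118 to 318 CPM in Cre. The pan-leukocyte gene Ptprc stood at 0.881 to 2.72 CPM in Cre_TGFB and 1.73 to 5.29 CPM in Cre, and the T cell gene Cd3e at 0 in all 8 libraries. The call of Ptprc was lost without the replicate block (edgeR adjusted p = 0.0612). Here as elsewhere, fewer cells of a type and less RNA per cell cannot be told apart in such bulk samples.

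Hyal2 (ENSMUSG00000010047), the target of the deletion, stood at 9.14, 7.48, 7.70 and 5.37 CPM in the Cre_TGFB libraries of replicates 1 to 4, against 12.3, 8.34, 13.5 and 7.62 CPM in the Cre libraries. The ranges overlapped, although Cre_TGFB was the lower library in all 4 pairs. The log2 fold change was -0.47 (SE 0.31, edgeR adjusted p = 0.191), which did not pass the threshold of 0.05. For orientation, the means after the control virus were 36.8 CPM in GFP_TGFB and 41.2 CPM in GFP. Both Cre_TGFB and Cre received the Cre virus, so their comparison does not check the deletion. The counts also include reads of the exons that the deletion spares.

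The comparison of Cre_TGFB with Cre asks how fibroblasts that have lost Hyal2 respond to TGFB. The response was broad. Of 15624 genes tested, edgeR called 4845 higher (31%) and 5097 lower (32.6%) at a Benjamini-Hochberg adjusted p under 0.05. A change of at least 2-fold was called in 981 genes higher (6.28%) and in 2035 lower (13%), and one of at least 4-fold in 335 higher and 759 lower. The median log2 fold change was 0.52 among the genes called higher, -0.78 among those called lower and 0.00 over all genes tested. The 4 Cre_TGFB libraries lay above all 4 Cre libraries in 3903 genes (25%) and below them in 4104 (26.3%). Because most genes were called, a count of called members in a gene list is read below against the shares of 31% and 32.6%. In a principal component analysis of the 8 libraries, TGFB separated the cultures on the first axis (77.2% of the variance) and sex on the second (11%).

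**Figure D1:**
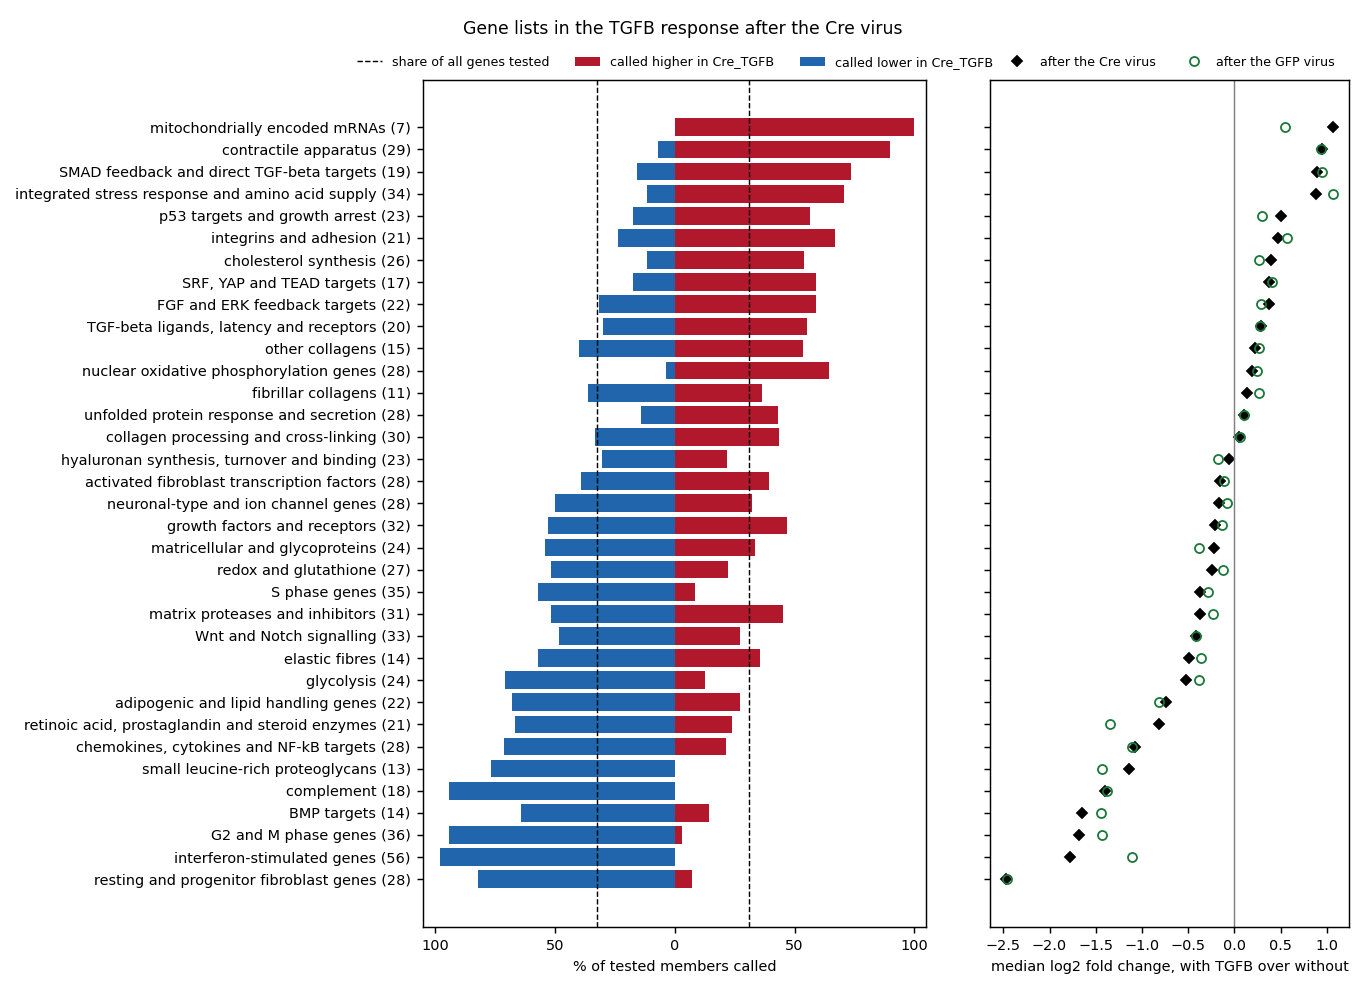
Left, share of tested members called higher (red, to the right) or lower (blue, to the left) in Cre_TGFB for 35 gene lists, with the share over all genes tested as dashed lines and the number of tested members in brackets; right, median log2 fold change with TGFB over without, after the Cre virus (black diamonds) and after the GFP virus (green circles). The lists are sorted by their median after Cre, from mitochondrially encoded mRNAs at 1.06 to resting fibroblast genes at -2.47.

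Genes of the TGF-beta pathway itself moved in both directions. Of 20 tested genes for ligands, latency proteins and receptors, 11 were called higher and 6 lower (median log2 fold change 0.29). Tgfb1, the main ligand, stood at 207, 199, 191 and 194 CPM in Cre_TGFB, against 53.4, 51.3, 41.4 and 41.7 CPM in Cre. The groups were far apart, and the log2 fold change was 2.08 (SE 0.09, edgeR adjusted p = 1.99e-12). Ltbp2, a microfibril protein of the latent TGF-beta binding family, rose 7.70-fold to 3587 ± 611 CPM in Cre_TGFB, against 466 ± 67.2 CPM in Cre (SD, n = 4 each). Inhba, the activin A subunit gene, rose by 2.78 on the log2 scale, the type I receptor gene Tgfbr1 by 0.86, and the activin and myostatin antagonists Fst and Fstl3 by 1.43 and 1.23. In contrast, the co-receptor gene Tgfbr3 (betaglycan) stood at 8.11, 8.76, 9.71 and 8.45 CPM in Cre_TGFB and at 50.9, 38.8, 85.0 and 79.8 CPM in Cre. Itgb8, an integrin subunit that activates latent TGF-beta, changed by -2.83, Acvrl1, a type I receptor for BMP9 and BMP10, by -1.50, and the type II receptor Tgfbr2 by -0.21.

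Among 19 genes of SMAD feedback and direct TGF-beta targets, 14 were called higher and 3 lower (median 0.89). The cytokine Il11 rose by 4.04, the NADPH oxidase Nox4 by 2.73, the ubiquitin ligase Smurf2 by 1.55, the SMAD inhibitor Skil by 1.31 and the inhibitory Smad7 by 0.31. Smad3, the signal transducer, fell by 0.74. Tgfbi, a secreted adhesion protein named for its induction by TGF-beta, stood at 13.4, 19.7, 15.2 and 11 CPM in Cre_TGFB and at 155, 197, 287 and 252 CPM in Cre, log2 fold change -3.89 (SE 0.20, edgeR adjusted p = 1.43e-10). It thus moved against its list.

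Targets of the related BMP pathway were mostly lower, 9 of 14 tested against 2 higher (median -1.65). Id3, which encodes an inhibitor of basic helix-loop-helix factors, stood at 173, 160, 127 and 135 CPM in Cre_TGFB and at 640, 513, 719 and 513 CPM in Cre. Id1, Id2 and Id4 changed by -1.67, -1.97 and -2.16 and the BMP target Atoh8 by -3.19. Grem1, a secreted BMP antagonist, rose by 2.44 on the log2 scale.

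Contractile genes formed the most one-sided group of genes called higher among the lists with over 20 tested members, 26 of 29 tested with 2 lower (median 0.95). Acta2, which encodes smooth muscle actin, stood at 3909, 3670, 3314 and 3969 CPM in Cre_TGFB and at 1124, 917, 518 and 880 CPM in Cre. Its log2 fold change was 2.16 (SE 0.14, edgeR adjusted p = 7.08e-10). Tagln, an actin-binding protein of smooth muscle, rose to 2631 ± 272 CPM in Cre_TGFB, against 582 ± 177 CPM in Cre (SD, n = 4 each). Calponin 1 (Cnn1) rose by 4.03, the tropomyosin Tpm1 by 2.24, the myosin light chain Myl9 by 1.34 and vinculin (Vcl) by 0.67. Myosin light chain kinase (Mylk) and Synpo2, an actin-bundling protein, changed by -0.81 and -0.78, and desmin (Des) was at 0.01. Of 21 integrin and adhesion genes, 14 were called higher and 5 lower. The fibronectin receptor subunit Itga5 rose 4.78-fold to 1731 ± 138 CPM in Cre_TGFB, against 362 ± 29.2 CPM in Cre, while the subunits Itga8 and Itga1 changed by -2.24 and -1.17. Cdh6, a cadherin, stood at 18.4, 20.5, 20.3 and 14.9 CPM in Cre_TGFB and at 0.152, 0.334, 0.121 and 0.0356 CPM in Cre, 115-fold apart in the means. Among 17 genes of serum response factor, YAP and TEAD signalling, 10 were called higher and 3 lower, with the muscle ankyrin repeat gene Ankrd1 at 2.30 and the matricellular Ccn1 at 0.74.

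**Figure D2:**
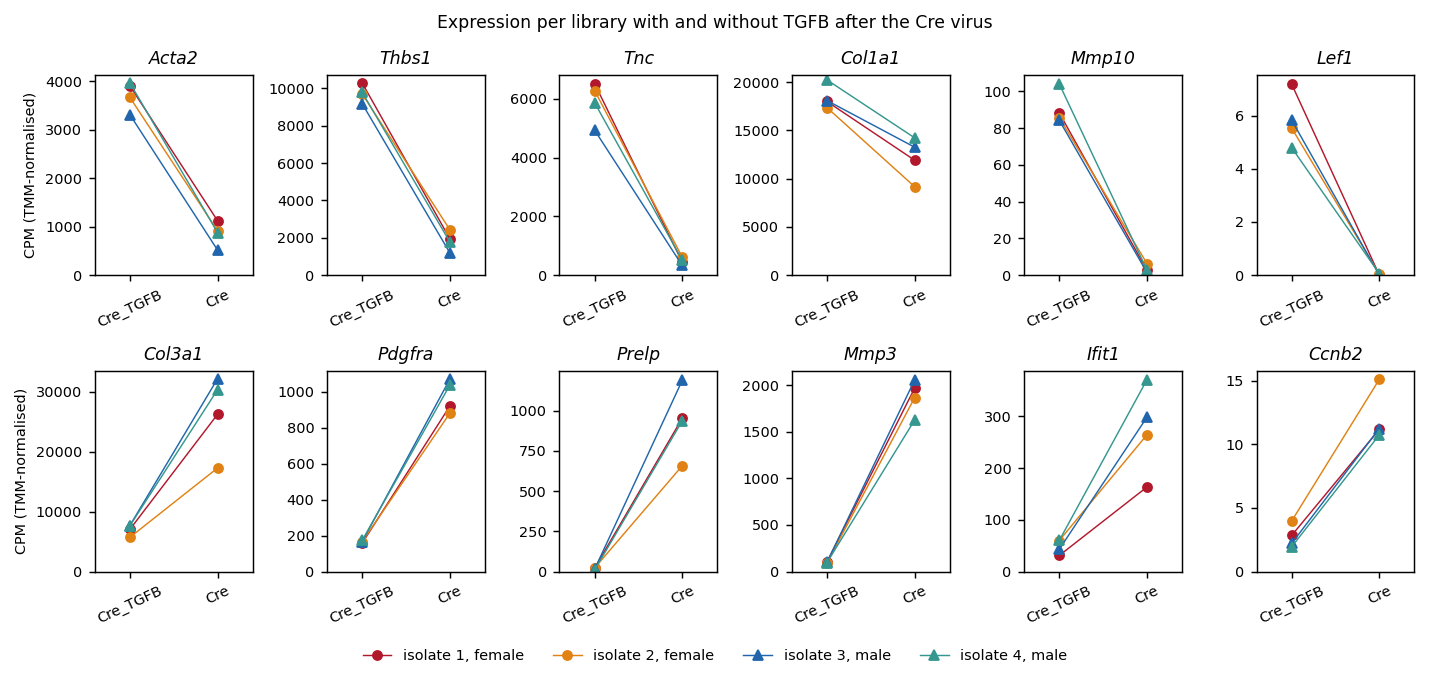
CPM of 12 genes in each library, with Cre_TGFB on the left and Cre on the right of each panel; a line joins the 2 libraries of an isolate, circles are female and triangles male isolates, and each vertical axis starts at 0. The 4 Cre_TGFB libraries lie above all Cre libraries in the first 6 panels (Acta2 to Lef1) and below them in the other 6 (Col3a1 to Ccnb2).

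The CArG box, the binding motif of serum response factor, is shown here because contractile genes are its textbook targets. In the 250 bases before the transcription start in the RefSeq promoter table (build GRCm38.p6), it was found on either strand in 5 of 26 contractile genes with an entry (19.2%), against 1.43% of the 11227 tested genes with an entry. All 5 (Cnn2, Fermt2, Myl6, Myl9 and Vcl) were called higher. Of the 160 tested genes that carry the box, 44.4% were called higher, against 32.5% of all tested genes with an entry. The stretches around the box, in capitals, of Vcl (chr14:20929148-20929207, plus strand) and Myl9 (chr2:156775279-156775338, plus strand) read as follows.
Vcl: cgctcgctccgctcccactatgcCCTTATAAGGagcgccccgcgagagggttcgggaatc
Myl9: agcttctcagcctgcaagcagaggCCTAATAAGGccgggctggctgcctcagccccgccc

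Collagen genes did not move as a group. Of 11 fibrillar collagen genes tested, 4 were called higher and 4 lower, and of 15 other collagens 8 were higher and 6 lower. Col1a1, a chain of type I collagen, stood at 18010, 17380, 18110 and 20250 CPM in Cre_TGFB, against 11920, 9173, 13270 and 14240 CPM in Cre. It rose 1.52-fold, log2 fold change 0.62 (SE 0.08, edgeR adjusted p = 1.03e-06). Col1a2, the other chain of type I collagen, was at 11657 ± 930 CPM in Cre_TGFB and 10746 ± 2141 CPM in Cre (SD, n = 4 each), with overlapping libraries and an adjusted p of 0.0676 in edgeR. Col3a1, the chain of type III collagen, stood at 7024, 5701, 7662 and 7634 CPM in Cre_TGFB and at 26230, 17270, 32160 and 30340 CPM in Cre. It was 3.78-fold lower and had the largest loss in mean CPM of the genes called lower. The type VI chains Col6a1 and Col6a2, which form beaded filaments around cells, changed by -3.52 and -3.56, and the fibril-associated Col14a1 by -3.24. In the other direction, Col7a1, the collagen of anchoring fibrils, rose by 3.33, Col12a1 by 1.72, Col5a2 by 0.91 and the basement membrane chain Col4a1 by 0.60.

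Processing enzymes were split likewise, with 13 of 30 higher and 10 lower. The cross-linking oxidases Lox and Loxl2 rose by 1.19 and 1.26, and the procollagen N-proteinase gene Adamts14 by 2.26. Its relative Adamts2 stood at 295, 282, 280 and 267 CPM in Cre_TGFB and at 1331, 1014, 1592 and 1513 CPM in Cre. The procollagen C-proteinase enhancer Pcolce changed by -1.39.

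Matricellular proteins, which bind cells without building fibres, held several of the largest gains in level. Of 24 tested, 8 were called higher and 13 lower. Tenascin C (Tnc) stood at 6521, 6286, 4937 and 5873 CPM in Cre_TGFB and at 445, 614, 328 and 511 CPM in Cre, log2 fold change 3.67 (SE 0.12, edgeR adjusted p = 3.17e-14). Thrombospondin 1 (Thbs1), an activator of latent TGF-beta, rose 5.31-fold to 9740 ± 454 CPM in Cre_TGFB, against 1834 ± 512 CPM in Cre (SD, n = 4 each). The CCN family was divided. Ccn2 (connective tissue growth factor) rose by 1.64 and Ccn4 by 3.31, while Ccn5 changed by -3.39 and Ccn3 by -4.82. Ccn3 stood at 1.84, 2.32, 2.02 and 2.64 CPM in Cre_TGFB and at 56.5, 44.1, 74.6 and 74.3 CPM in Cre. Fibronectin (Fn1) was not called (log2 fold change 0.15, edgeR adjusted p = 0.101). Elastin (Eln) rose by 2.15 within a list of elastic fibre genes in which 5 of 14 were higher and 8 lower, and the fibulin family gene Efemp1 changed by -5.09.

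Small leucine-rich proteoglycans, which coat collagen fibrils, were called lower in 10 of 13 tested members and higher in 0 (median -1.14). Prelp stood at 20.5, 21.6, 13.4 and 9.31 CPM in Cre_TGFB and at 953, 657, 1188 and 936 CPM in Cre, 57.6-fold lower in the means. Decorin (Dcn) was 3.54-fold lower, at 341 ± 76 CPM in Cre_TGFB and 1207 ± 254 CPM in Cre (SD, n = 4 each). Biglycan (Bgn) fell less, to 10419 ± 536 CPM in Cre_TGFB, against 12759 ± 848 CPM in Cre.

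Hyaluronan genes, the pathway of the deleted enzyme, had 5 of 23 tested members called higher and 7 lower, both below the shares over all genes, and a median log2 fold change of -0.06. The synthase Has2 stood at 30.1, 34.3, 40.3 and 35.5 CPM in Cre_TGFB and at 35, 54.1, 30.5 and 33.4 CPM in Cre, with overlapping libraries (log2 fold change -0.06, SE 0.18, edgeR adjusted p = 0.799). The receptor Cd44 stood at 256, 273, 248 and 238 CPM in Cre_TGFB and at 104, 123, 80.0 and 87.9 CPM in Cre, log2 fold change 1.39 (SE 0.08, edgeR adjusted p = 6.01e-11). The UDP-sugar transporter Slc35d1 rose by 0.75, the synthase Has1 by 1.30 (not called without the replicate block, edgeR adjusted p = 0.183), Tnfaip6, which transfers protein chains onto hyaluronan, by 0.83, and the proteoglycan aggrecan (Acan), at 0.364 CPM in Cre_TGFB, by 2.21. The hyaluronan-binding proteoglycan versican (Vcan) fell by 0.44, the receptor Hmmr by 1.49, the inter-alpha-trypsin inhibitor chain Itih2 by 0.97 and the innate immune receptor Tlr2 by 0.82. Hmmr is also on the list of G2 and M phase genes described below. Cemip, which takes part in breaking down hyaluronan, fell by 0.89, a call that was lost without the isolates of replicate 3 or 4 (edgeR adjusted p = 0.0936 and 0.0648) and without the Cre_TGFB library of replicate 3 alone (0.0577). The hyaluronidase Hyal1 (-0.24) and the chain Itih3 (-0.89) passed narrowly, with edgeR adjusted p of 0.0486 and 0.0358. Both calls were lost without isolate 3, at 0.275 and 0.218, and without the replicate block, at 0.114 and 0.121. Without isolate 1 or 4 they were lost as well, at 0.0965 and 0.229 for Hyal1 and 0.0557 and 0.106 for Itih3. The call of Hyal1 was also lost in DESeq2 (adjusted p = 0.0517). In edgeR it was lost with DESeq2 size factors (0.0553), with only the libraries compared (0.117) and with no filter on low counts (0.0618). The 10 uncalled members other than Hyal2 were Has2, Has3, Hyal3, Cemip2, Ugdh, Ugp2, Hapln4, Bcan, Lyve1 and Tlr4, with log2 fold changes from -0.13 for Ugdh to 0.77 for Bcan.

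Matrix proteases and their inhibitors changed in 30 of 31 tested members, 14 higher and 16 lower. The stromelysins Mmp10 and Mmp3, neighbouring genes of close relatives, went opposite ways. Mmp10 stood at 88.2, 85.6, 84.2 and 104 CPM in Cre_TGFB and at 2.59, 6.30, 1.4 and 2.72 CPM in Cre, 27.8-fold higher in the means. Mmp3 stood at 103, 91.5, 97.9 and 95.1 CPM in Cre_TGFB and at 1968, 1865, 2055 and 1625 CPM in Cre, 19.4-fold lower in the means, log2 fold change -4.27 (SE 0.07, edgeR adjusted p = 1.62e-18). The gelatinase Mmp2 and its inhibitor Timp2 changed by -1.31 and -1.15. The plasminogen activator receptor Plaur rose by 2.26, while the activators Plat and Plau changed by -1.32 and -0.78.

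Both stromelysin promoters hold a match to the AP-1 site, the motif of Fos and Jun factors (TGANTCA, which reads the same on both strands), and they are shown for that reason. The site was found in 7 of 19 protease and inhibitor genes with a RefSeq promoter entry (36.8%), against 5.85% of the tested genes with an entry, and 5 of the 7 were called higher and 1, Mmp3, lower. Over all 657 tested genes with the site, 35.3% were called higher and 36.4% lower, against 32.5% and 33.7% of all tested genes with an entry. The stretches around it, in capitals, lie at chr9:7502255-7502314 for Mmp10 and chr9:7445752-7445811 for Mmp3, both on the plus strand of GRCm38.p6.
Mmp10: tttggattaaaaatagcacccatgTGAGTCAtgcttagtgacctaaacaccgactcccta
Mmp3: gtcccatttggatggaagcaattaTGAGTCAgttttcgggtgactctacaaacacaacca

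Genes of resting and progenitor fibroblasts were called lower in 23 of 28 tested members and higher in 2, with the lowest median of any list (-2.47). Pdgfra, the receptor that marks resident cardiac fibroblasts, stood at 158, 166, 167 and 173 CPM in Cre_TGFB and at 920, 881, 1070 and 1037 CPM in Cre. Its log2 fold change was -2.56 (SE 0.06, edgeR adjusted p = 1.05e-15). The surface antigen Ly6a (Sca-1) stood at 2.81, 4.01, 1.95 and 1.63 CPM in Cre_TGFB and at 267, 264, 533 and 468 CPM in Cre, 147-fold lower in the means. The ferritin receptor Scara5 had 2 counts over the 4 Cre_TGFB libraries and 2040 over the 4 Cre libraries. After scaling, the Cre level was 819-fold that of Cre_TGFB, with a 95% counting interval of 226 to 6770; its fitted log2 fold change of -9.65 depends on the prior count. Cd34, matrix Gla protein (Mgp) and the Wnt antagonist Sfrp1 changed by -5.72, -3.52 and -2.51. Meox1, a homeobox factor of activated fibroblasts that was also entered in this list, was the main exception and stood at 295, 229, 287 and 299 CPM in Cre_TGFB, against 12.3, 8.75, 9.32 and 9.81 CPM in Cre. Markers of other cells that a heart culture can hold were called lower in 8 of 12 tested for endothelium, with 0 higher (summed level 33.3 to 45 CPM in Cre_TGFB and 51.6 to 67.5 CPM in Cre), in 5 of 8 for mesothelium, with 0 higher, and in 5 of 8 for pericytes and smooth muscle, with 3 higher; their part in these results was not tested. General fibroblast markers were called lower in 8 of 12, with 2 higher (median -1.06).

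Among factors of activated fibroblasts the largest rise was that of Lef1, a nuclear partner of beta-catenin, which stood at 7.19, 5.53, 5.83 and 4.80 CPM in Cre_TGFB and at 0, 0.0357, 0 and 0.0534 CPM in Cre. Its fitted log2 fold change of 8.01 rests on very few counts in Cre. The Wnt ligands Wnt11, Wnt10b and Wnt2 rose by 3.55, 4.12 and 3.39, while the receptors Fzd4 and Fzd1 changed by -2.09 and -1.48 and the antagonists Sfrp2 and Dkk3 by -4.26 and -2.61. Over 33 genes of Wnt and Notch signalling, 9 were higher and 16 lower. The immediate early factor Egr2 stood at 52.9, 60.8, 72.3 and 69.2 CPM in Cre_TGFB and at 3.55, 8.36, 2.80 and 4.99 CPM in Cre. Among 28 factors of activated fibroblasts, 11 were higher and 11 lower. Runx1 and the tendon factor Scx rose by 0.68 and 2.07, while Snai1 and Prrx1, factors of mesenchymal cells, changed by -1.08 and -1.04.

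Growth factor genes were all called, 15 of 32 higher and 17 lower. The EGF receptor ligand Hbegf stood at 399, 419, 369 and 309 CPM in Cre_TGFB and at 23.8, 34.2, 16 and 12.8 CPM in Cre. The platelet-derived factor Pdgfc rose by 4.38, endothelin 1 (Edn1) by 2.22 and Fgf2 by 1.42. The lymphatic growth factor Vegfd changed by -4.84, hepatocyte growth factor (Hgf) by -2.27, Igf1 by -1.86 and the angiotensin receptor gene Agtr1a by -3.20. Targets and feedback inhibitors of FGF and ERK signalling bear on the open point of bFGF in the Cre cultures: 13 of 22 were called higher and 7 lower, with Dusp5 at 2.89 and Etv4 at 2.14, but the feedback inhibitors Spry2, Spry4 and Spry1 at -1.52, -0.61 and -0.52. The part of bFGF in these values was not tested.

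Interferon-stimulated genes, which are switched on in antiviral defence, were called lower in 55 of 56 tested members and higher in 0 (median -1.78). Ifit1, which binds foreign RNA, stood at 31, 60.0, 43.1 and 60.0 CPM in Cre_TGFB and at 163, 264, 298 and 371 CPM in Cre. Its log2 fold change was -2.48 (SE 0.26, edgeR adjusted p = 7.08e-07). The ubiquitin-like modifier Isg15 stood at 111, 182, 107 and 150 CPM in Cre_TGFB and at 276, 387, 433 and 471 CPM in Cre. The immunity-related GTPase Iigp1 stood at 2.86, 5.62, 4.25 and 5.68 CPM in Cre_TGFB and at 81.4, 128, 163 and 164 CPM in Cre, 29.1-fold lower in the means, and the groups of none of these genes overlapped. Irf7, the factor that amplifies the interferon response, was at -2.81 on the log2 scale, and Psmb8, a subunit of the immunoproteasome, at -3.74. The 1 member that was not called was Irgm1, at 0.24 (edgeR adjusted p = 0.259). Summed over the list, the level was 2928 to 4080 CPM in the 4 Cre_TGFB libraries and 6741 to 11450 CPM in the 4 Cre libraries.

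The interferon-stimulated response element (GAAANNGAAA, either strand) was found in 18 of 41 members with a RefSeq promoter entry (43.9%), against 3.25% of the tested genes with an entry. Of the 365 tested genes that hold the motif, on the list or not, 48.8% were called lower, against 33.7% of all tested genes with an entry. The stretches below, with matches in capitals, carry 2 matches for Ifit1 (chr19:34640780-34640839, plus strand) and 3 overlapping matches for Isg15 (chr4:156200849-156200908, minus strand), and are shown because both genes are standard readouts of the response.
Ifit1: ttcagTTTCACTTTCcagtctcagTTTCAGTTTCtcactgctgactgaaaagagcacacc
Isg15: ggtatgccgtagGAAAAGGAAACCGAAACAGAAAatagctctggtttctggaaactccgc

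Complement genes were called lower in 17 of 18 tested members (median -1.4), and chemokine, cytokine and NF-kB genes in 20 of 28, with 6 higher (median -1.07). The central complement component C3 stood at 27.7, 26.4, 11.8 and 7.41 CPM in Cre_TGFB and at 452, 288, 471 and 354 CPM in Cre. The C1 inhibitor gene Serping1 was 7.57-fold lower, at 142 ± 9.96 CPM in Cre_TGFB and 1075 ± 267 CPM in Cre (SD, n = 4 each). The neutrophil chemokine Cxcl5 stood at 0.116, 0.412, 0.0590 and 0 CPM in Cre_TGFB and at 46.4, 43.3, 62.6 and 37.4 CPM in Cre. Il33, an alarm cytokine of stromal cells, changed by -4.86. A few inflammatory mediators went the other way. Ptgs2, the inducible prostaglandin synthase, stood at 516, 527, 478 and 482 CPM in Cre_TGFB and at 11.4, 22.8, 6.25 and 5.98 CPM in Cre, log2 fold change 5.67 (SE 0.36, edgeR adjusted p = 2.96e-09). The cytokine Lif rose by 4.17, the NF-kB inhibitor Tnfaip3 by 2.19 and the macrophage growth factor Csf1 by 1.08. The lower leukocyte markers described above move with these 3 lists, and macrophages also express complement and interferon-stimulated genes; the part of leukocytes in these results was not tested.

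Proliferation genes were lower in G2 and M phase but less so in S phase. Of 36 G2 and M phase genes tested, 34 were called lower and 1 higher (median -1.68), and of 35 S phase genes 20 were lower and 3 higher (median -0.37). Ccnb2, a mitotic cyclin, stood at 2.84, 3.97, 2.21 and 1.94 CPM in Cre_TGFB and at 11.2, 15.1, 11.3 and 10.8 CPM in Cre, log2 fold change -2.16 (SE 0.15, edgeR adjusted p = 5.4e-10). Cdc20, an activator of the anaphase-promoting complex, changed by -1.69 and the proliferation marker Mki67 by -2.0. The checkpoint gene Bub3 was the 1 member called higher, at 0.22, a call lost without isolate 1, 3 or 4 (edgeR adjusted p = 0.0611, 0.0965 and 0.0526). Of 5 cell cycle inhibitors, named after their values were seen, 3 rose and 2 fell. Cdkn2b (p15) stood at 193, 165, 181 and 179 CPM in Cre_TGFB and at 32.2, 28.4, 31.6 and 30.6 CPM in Cre, and Cdkn2a and Cdkn1a (p21) rose by 0.80 and 0.51. Cdkn1b and Cdkn1c fell, by 0.44 and 1.54. The proto-oncogene Myc rose by 1.56, and cyclin D1 (Ccnd1) fell by 0.85.

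The CHR element (TTTGAA, either strand), a promoter motif of mitotic genes, was found in 11 of 30 G2 and M phase genes with an entry (36.7%), against 13% of the tested genes with an entry, and the CCAAT box in 23 of 30 (76.7%), against 40%. Over all 1456 tested genes with the CHR element, 35.9% were called lower, close to the 33.7% of all tested genes with an entry. The element, in capitals, is shown for Ccnb2 (chr9:70421686-70421745, minus strand) and Cdc20 (chr4:118437344-118437403, minus strand).
Ccnb2: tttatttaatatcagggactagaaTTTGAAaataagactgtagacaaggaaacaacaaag
Cdc20: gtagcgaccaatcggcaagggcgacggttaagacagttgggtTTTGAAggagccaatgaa

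Genes of amino acid supply and the integrated stress response were called higher in 24 of 34 tested members and lower in 4 (median 0.88). The hormone gene Fgf21 stood at 13.5, 12.5, 22.1 and 22 CPM in Cre_TGFB and at 0.313, 0.250, 0.169 and 0.267 CPM in Cre, 70.1-fold higher in the means. Asparagine synthetase (Asns) stood at 250, 233, 310 and 299 CPM in Cre_TGFB and at 116, 125, 112 and 127 CPM in Cre. The serine synthesis enzymes Phgdh and Psph rose by 1.62 and 1.77, the mitochondrial folate enzymes Mthfd2 and Shmt2 by 1.67 and 1.28, and Pycr1 and Aldh18a1, which make proline, by 1.12 and 0.78. The mRNA of Atf4, the main transcription factor of this response, was not called (0.20, edgeR adjusted p = 0.0964). The CEBP-ATF response element (TGATGNAA, either strand), to which that factor binds, was found in 7 of 28 members with an entry (25%), against 2.53% of the tested genes with an entry, and 6 of the 7 were called higher. Over all 284 tested genes with this motif, 33.8% were called higher, against 32.5% of all tested genes with an entry. The element is in capitals in Fgf21 (chr7:45615594-45615653, minus strand) and Asns (chr6:7693210-7693269, minus strand).
Fgf21: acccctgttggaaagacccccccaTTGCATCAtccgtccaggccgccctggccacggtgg
Asns: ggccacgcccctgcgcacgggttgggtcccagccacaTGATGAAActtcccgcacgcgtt

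Energy metabolism genes split by pathway. Of 24 glycolysis genes 17 were called lower and 3 higher (median -0.53), and of 28 nuclear genes of oxidative phosphorylation 18 were higher and 1 lower (median 0.19). Pyruvate dehydrogenase kinase 1 (Pdk1), which inhibits pyruvate dehydrogenase, stood at 42.2, 42.9, 33.1 and 28.3 CPM in Cre_TGFB and at 117, 121, 108 and 122 CPM in Cre. Lactate dehydrogenase A (Ldha) changed by -0.58, while hexokinase 2 (Hk2) rose by 1.38. Of 13 mitochondrially encoded mRNAs, mt-Nd3, mt-Nd4l, mt-Co2, mt-Co3, mt-Atp6 and mt-Atp8 fell below the count filter, for a reason that was not tested. All 7 tested members were called higher (median 1.06), and mt-Cytb stood at 2483, 2082, 4575 and 3388 CPM in Cre_TGFB and at 1330, 1565, 1448 and 1501 CPM in Cre. The mitochondrial share of the library given above was taken over all mitochondrially encoded genes, including those below the count filter. Differences in RNA quality were not tested. Of 26 cholesterol synthesis genes 14 were called higher and 3 lower (median 0.40).

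Other genes with the largest folds belonged to diverse classes. The membrane skeleton gene Add2 rose by 6.59, the olfactomedin Olfm2 by 5.53, the serotonin receptor Htr2b by 5.37, arginase 1 (Arg1) by 5.04 and the retinoic acid binding protein Crabp2 by 4.94. Among genes called lower, haptoglobin (Hp) changed by -6.84, the matrix protein Abi3bp by -6.59, the monooxygenase Fmo2 by -6.58, the protease inhibitor A2m by -6.56, the surface antigen Ly6c1 by -6.44, the complement component C7 by -6.17 and the glycogen regulator Ppp1r3c by -6.06. All of them had Cre_TGFB libraries fully apart from the Cre libraries, which the rule for naming them required. Other large losses in level were those of ferritin heavy chain (Fth1), at 783 ± 56.9 CPM in Cre_TGFB and 2187 ± 172 CPM in Cre (SD, n = 4 each), of the interleukin 6 signal transducer Il6st, at 331 ± 42 and 1379 ± 269 CPM in Cre_TGFB and Cre, of the endothelial and heart development gene Heg1 (-1.27) and of the serine protease inhibitor Serpina3n (-5.68). Extracellular superoxide dismutase (Sod3) changed by -3.80.

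Whether the TGFB response differs after deletion of Hyal2 was tested as the difference between the response after Cre and the response after GFP. These cultures differ in the virus and in Cre recombinase as well as in Hyal2, and the effects of each cannot be told apart. No gene was called by edgeR in either direction (0 of 15624, 0%), 868 genes lay at an unadjusted p under 0.05, and DESeq2 and limma-voom also called 0. The genes with the smallest p were the mitochondrial glutamate carrier Slc25a22 (difference -0.48), the predicted gene Gm28932 (2.22, at 0.177 CPM in Cre_TGFB) and Piwil4 (-0.94), each with an edgeR adjusted p of 0.774. The median size of the difference over all genes was 0.12 on the log2 scale, and 95% of genes lay within 0.65. The 2 responses share isolates but no library. Of the genes called higher after Cre, 82.9% were also called higher after GFP, where 29.8% of genes were; the 4015 shared genes made up 86.3% of the GFP list. Of those called lower after Cre, 86% were also lower after GFP, where 32.1% of genes were, and the 4383 shared genes made up 87.4% of the GFP list. A total of 0 genes were higher after Cre and lower after GFP, and 3 were lower after Cre and higher after GFP.

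Values after the 2 viruses were side by side for most groups. The median log2 fold change of contractile genes was 0.95 after Cre and 0.94 after GFP, that of resting fibroblast genes -2.47 and -2.46 after Cre and GFP, and that of SMAD targets 0.89 and 0.94. The list whose medians were furthest apart was the interferon-stimulated genes, with medians of -1.78 after Cre and -1.11 after GFP. All 56 members had a lower estimate after Cre, 43 of them at an unadjusted p under 0.05, and 0 were called by edgeR once adjusted over all genes. Isg15, for example, had a log2 fold change of -1.50 after Cre and -0.18 after GFP (difference -1.31, unadjusted p = 0.00177 in edgeR). The summed level of the list was 2928 to 4080 CPM in Cre_TGFB and 3029 to 3710 CPM in GFP_TGFB, against 6741 to 11450 CPM in Cre and 4934 to 7050 CPM in GFP. The libraries with TGFB thus overlapped between the viruses, and the Cre and GFP ranges without TGFB overlapped only at their edges. Mitochondrially encoded mRNAs also differed in their medians, 1.06 after Cre and 0.54 after GFP, and none of the 7 was called for the difference. Enzymes of retinoic acid, prostaglandin and steroid metabolism had medians of -0.81 after Cre and -1.35 after GFP, and none of the 21 was called for the difference.

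**Figure D3:**
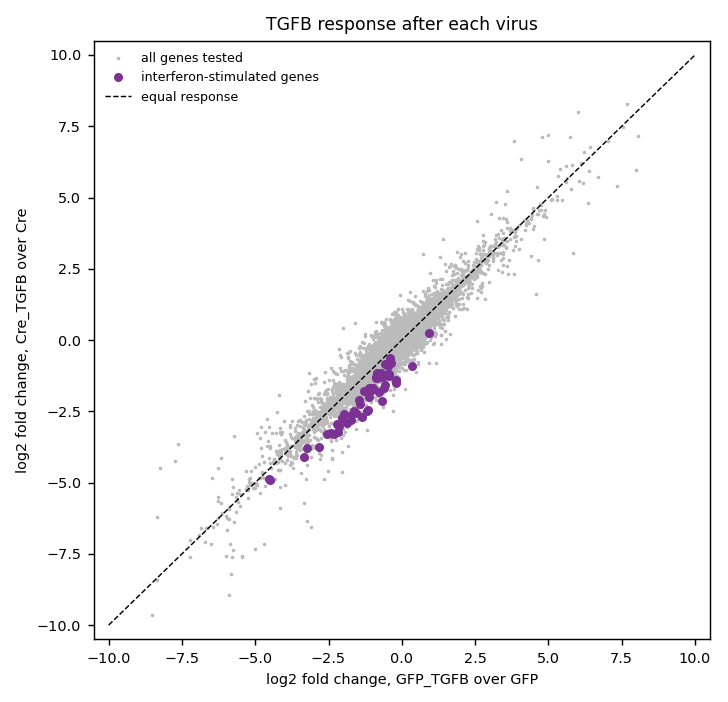
Log2 fold change with TGFB over without TGFB after the Cre virus (vertical axis) against the same after the GFP virus (horizontal axis) for all 15624 genes tested (grey) and 56 interferon-stimulated genes (purple), with the line of equal response dashed. Points follow the line, and all 56 interferon-stimulated genes lie below it.

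The 4 isolates gave the same direction for the main lists but differed in size. The median paired difference of interferon-stimulated genes was -2.24 and -2.16 in the male isolates 3 and 4, and -1.44 and -1.35 in the female isolates 1 and 2. For complement genes it was -1.84 and -1.77 in males and -1.21 and -1.08 in females, and for stress response genes 1.05 and 1.00 in males and 0.66 and 0.67 in females. Cholesterol genes were the reverse, at 0.17 and 0.04 in males and 0.53 and 0.67 in females.

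**Figure D4:**
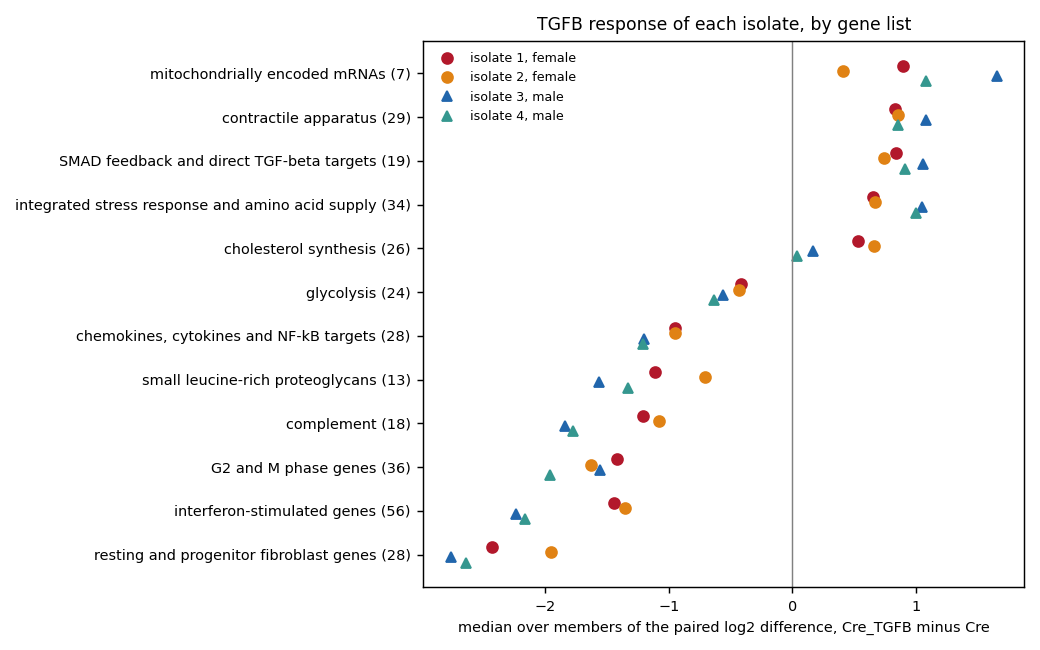
Median over the tested members (number in brackets) of the paired log2 difference, Cre_TGFB minus Cre, for each isolate and 12 gene lists; circles are female and triangles male isolates. Males lie further from 0 for interferon-stimulated and complement genes, and nearer to 0 for cholesterol synthesis.

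The male minus female difference of the response was tested with 2 pairs of libraries in each sex. edgeR called 284 genes above 0 (1.82%) and 394 below 0 (2.52%). Atf3, a stress-induced transcription factor, stood at 11.8 and 13.6 CPM in male and 5.47 and 5.05 CPM in female Cre_TGFB libraries, against 2.53 and 2.23 CPM in male and 2.86 and 3.25 CPM in female Cre libraries. The sexes were apart in Cre_TGFB and close in Cre, and the log2 response was 2.42 in males and 0.80 in females (edgeR adjusted p = 0.000899 for the difference). Ccn2 stood at 7383 and 7252 CPM in male and 7234 and 6621 CPM in female Cre_TGFB libraries, against 1508 and 1726 CPM in male and 3160 and 3425 CPM in female Cre libraries. Here the sexes were alike with TGFB and apart without it, and the log2 response was 2.18 in males and 1.07 in females (edgeR adjusted p = 0.00103 for the difference). Of the 678 genes called, 70.9% had a larger gap between the sexes in Cre than in Cre_TGFB. The same share over all genes tested was not computed, so this value is not read as particular to the called genes.

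The other genes named by the smallest p were Mpp6, a scaffold protein, with a log2 response of 0.94 in males and -0.30 in females, Tnfaip6 with 1.27 and 0.38 in males and females, and the thioredoxin reductase Txnrd1 with 1.64 and 0.79. Below 0 stood the complement gene C4b, at -5.21 in males and -3.15 in females, Cd34 at -6.68 and -5.00, Ppp1r3c at -7.25 and -5.33, the proprotein convertase Pcsk6 at -1.86 and -0.88, and Eln at 1.51 and 2.73. Of 26 cholesterol synthesis genes, 8 were called and all 8 lay below 0. The count of called genes rested on single isolates: it was 29, 73 and 164 without isolates 2, 3 and 4, and 669 without isolate 1. Without the replicate block edgeR called 20 genes, and of the 10 named here Atf3, Mpp6, Ccn2 and C4b kept their call in that fit. Without isolate 2 the calls of Atf3, Ccn2 and Tnfaip6 were lost (edgeR adjusted p = 0.0517, 0.0677 and 0.0615), and without isolate 3 those of Tnfaip6 and Txnrd1 (0.0504 and 0.054). Sex and isolate cannot be told apart beyond these 2 isolates per sex.

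**Figure D5:**
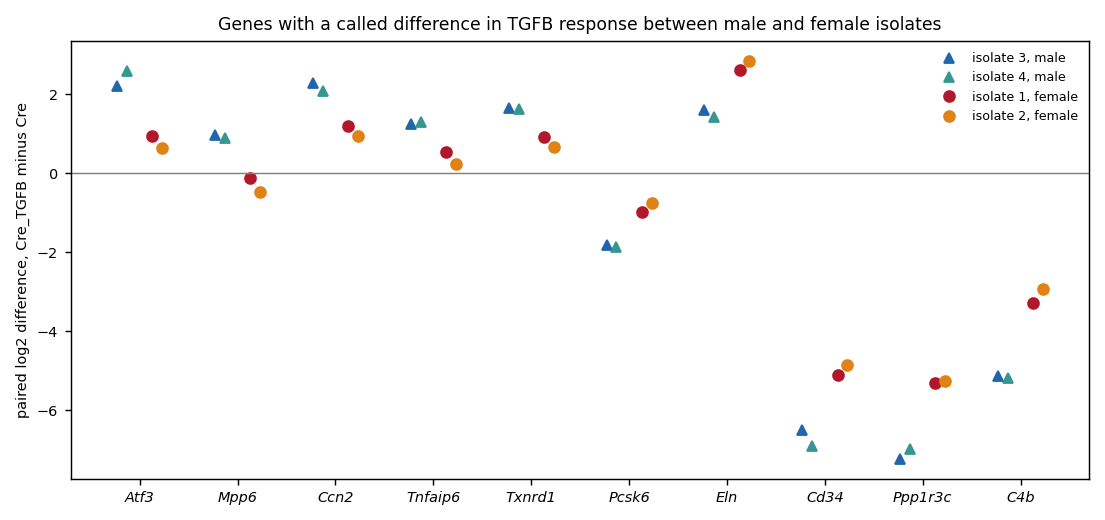
Paired log2 difference, Cre_TGFB minus Cre, for each isolate and 10 genes with a called difference between male (triangles, left of each position) and female (circles, right) isolates. Male isolates lie above the female ones in the first 5 genes (Atf3 to Txnrd1) and below them in the other 5 (Pcsk6 to C4b).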

How the data were processed

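Per the labels' protocols, Trizol extraction and DNase digestion preceded library preparation with the NEBNext Ultra II RNA kit. Reads were checked with FastQC 0.10.1 and counted per gene with HTSeq 0.10.0 on GRCm39, per the submitters' processing notes; no source used here names an aligner, an annotation release or a strand setting. The deposited values are raw counts per gene, which were used as they stand. Without a known strand setting, reads of overlapping antisense genes cannot be told apart. Without a named aligner, the handling of reads from close copies is not known.

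Of 55414 genes, 15624 with at least 10 counts (scaled to library size) in 4 libraries and 15 in all were fitted over the 20 libraries with edgeR 4.0.16 (TMM, robust quasi-likelihood test, Benjamini-Hochberg adjustment, 0.05), with a mean per group and the replicate number as a block, using R 4.3.3. The numbers pair the libraries because each stands for an isolate code in the names. Deviations of same-numbered Cre_TGFB and Cre libraries correlated at 0.427, 0.327, 0.24 and 0.357 for replicates 1 to 4. With the Cre library of the other isolate of the same sex, the values were 0.188, 0.237, 0.244 and 0.184. For replicate 3 this exceeded the value of its own number. With Cre libraries of the other sex they were -0.34 to -0.207. The part of sex in these correlations was not tested. A group by sex term gave the male minus female response. DESeq2 1.42.0 and limma 3.58.1 were alternatives. The tests were tried on simulated data in which changes were planted only in the Cre_TGFB libraries, alike in all isolates. No difference between the sexes was planted, so the power of the sex test was not tried. CPM are TMM-scaled, and p-values measure the spread between these libraries, which may be partly technical.

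Named genes were Hyal2, all tested hyaluronan genes, the 10 largest folds in each direction (with 5 CPM or more on average in whichever group was higher), the 10 largest changes in mean CPM, both among genes whose groups do not overlap, and the smallest p of the other tests. Members of the other lists were taken partly by their CPM and partly after their values were seen. Members and lists were chosen with earlier results of these data known. Promoters are from RefSeq (GRCm38.p6), and their coordinates were not mixed with those of GRCm39. Library totals set the counting error, and the limit that a count of 0 allows was 3 counts per library. Some genes that the rule names are not reported here.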

Additional observations from a re-analysis of the deposited data

Results flagged for a closer look

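A single library stood far from the other 3 of its group, by Dixon's criterion for 4 values, in 14 of 390 groups of values tested for the genes named above (3.59%); chance gives about 1 in 20. In Cre_TGFB the library of replicate 2 was the highest for Col7a1 (150 CPM, others at most 139) and Grem1 (19 CPM, others at most 9.42) and the lowest for Meox1 (229 CPM, others at least 287) and Olfm2 (57.7 CPM, others at least 68.4), and that of replicate 3 was the highest for Fgf2 (694 CPM, others at most 568) and Fmo2 (0.310 CPM, others at most 0.156). In Cre the library of replicate 2 was the lowest for Acvrl1 (319 CPM), Col4a1 (3395 CPM) and Spry1 (147 CPM) and the highest for Ccnb2 (15.1 CPM), Hmmr (13.1 CPM) and Ugp2 (96.5 CPM), and that of replicate 3 was the highest for Ppp1r3c (79.0 CPM) and the lowest for Tnfaip3 (7.65 CPM). The Cre library of replicate 2 thus accounted for 6 of the 14, including both cell cycle genes.

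The TGFB response differed between male and female isolates, by the edgeR test of the difference itself, in 47 of the 195 named genes tested (24.1%). Over all genes tested 1.82% were called above 0 and 2.52% below 0, and 10 of the named genes were chosen for their p in this very test, so the share among named genes is raised by the choice. Differences are male minus female on the log2 scale. Among signalling genes and SMAD targets, the difference was 0.92 for Inhba and 0.38 for Fstl3, against -0.94 for Tgfbi, -0.77 for Tgfbr3 and -0.89 for Atoh8. Of 17 targets of serum response factor, YAP and TEAD, 3 were called, all above 0, with Ankrd1 at 1.38, Ccn1 at 0.54 and Ccn2 at 1.11. Of 22 targets of FGF and ERK signalling, 2 were called above 0, among them Myc at 0.73, and 1 below 0, Ccnd1 at -0.74. Atf3 was at 1.63. The ligands Pdgfc, Lif and Hbegf were at 1.45, 1.05 and 0.72, while Igf1 and Il33 were at -0.95 and -1.12.

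Among the other named genes of matrix, proteases and adhesion with a call, 13 lay below 0 and 3 above 0. The difference was -1.68 for Col6a1, -1.60 for Col6a2, -1.22 for Eln, -0.91 for Efemp1, -1.32 for Prelp, -0.65 for Adamts14, -0.50 for Adamts2, -0.72 for Ccn5, -0.61 for Mmp2, -0.52 for Timp2, -0.84 for Plau, -1.22 for Cemip and -1.62 for Itga8. Above 0 were Col12a1 at 1.38, Plaur at 0.84 and Tnfaip6 at 0.88. Of 28 resting fibroblast genes, 8 were called below 0 and 1 above 0, and of 18 complement genes 6 below 0 and 0 above 0. Cd34 was at -1.68, Ly6a at -1.78, Ly6c1 at -2.28, C3, which is on both lists, at -1.70, C4b at -2.06 and Serping1 at -0.75. The Wnt genes Dkk3 and Fzd1 were at -0.46 and -0.64. Of the remaining genes, Ppp1r3c stood at -1.92, Pcsk6 at -0.98, Serpina3n at -1.77 and Sod3 at -0.55, and Mpp6 at 1.23, Txnrd1 at 0.84 and Mthfd2 at 0.54.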

How the results depend on the processing

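The count of genes called between Cre_TGFB and Cre was 9942 and stayed between 8500 and 10186 over the 7 other settings. It was 8832 without the replicate block, and 8828 of those genes were shared with the blocked fit, all in the same direction. Leaving out an isolate or a library gave 8426 to 10080 genes, 4012 to 4911 of them higher and 4397 to 5194 lower. Of changes of at least 2-fold there were 3016, against 1939 with a mean of at least 1 CPM required, which tests fewer genes, and 2819 to 3274 in the leave-outs. The difference between the responses after Cre and after GFP gave 0 calls under every other setting and 0 to 1 in the leave-outs (above 0, 0 to 1; below 0, 0), the 1 being without isolate 2. The male minus female count was the least stable. It was 678 with the replicate block and 20 without it, 1246 with the 8 libraries alone and 1396 with no filter on low counts, and 29 to 987 in the leave-outs; it was under 300 also without the Cre_TGFB library of replicate 2 (78) or 3 (144) or the Cre library of replicate 2 (81), 3 (233) or 4 (103). Above 0 the count was 284, against 9 without the block, 664 with the 8 libraries alone, 663 with no filter, 453 in DESeq2 and 4 to 443 in the leave-outs. Below 0 it was 394, against 11 without the block, 733 with no filter and 25 to 546 in the leave-outs. The cause was not tested. Among named genes, only uncalled ones changed sign: Hyal3 (-0.003688 without the block), Des (-0.00926 in limma-voom) and, when replicates were left out, Hyal3 (-0.1042 to 0.2374), Des (-0.1009 to 0.05676), Has2 (-0.2767 to 0.1309), Has3 (-0.04878 to 0.2996), Ugp2 (-0.2544 to 0.001449) and Tlr4 (-0.03706 to 0.2843). Genes near 0 counts, such as Scara5 and Lef1, have folds limited by depth.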

Other observations

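The remaining gene lists are given here beside the 31% of all genes called higher and the 32.6% called lower. Of 22 genes of fat cell formation and lipid handling, 15 were called lower and 6 higher (median -0.74), and of 21 enzymes of retinoic acid, prostaglandin and steroid metabolism 14 were lower and 5 higher (median -0.81). Targets of p53 and genes of growth arrest were called higher in 13 of 23 and lower in 4 (median 0.51). Redox genes were lower in 14 of 27 and higher in 6 (median -0.24), genes of neuronal type and ion channels lower in 14 of 28 and higher in 9 (median -0.17), and genes of the unfolded protein response higher in 12 of 28 and lower in 4 (median 0.10).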
